A study of Mus musculus with 27 samples.

Results

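The chemokine receptor genes Cx3cr1, Ccr1, Ccr2, Cxcr4 and Ccrl2 were followed through cultured mouse macrophages that lacked or carried the transcriptional coregulator GRIP1. The 5 genes were taken by name from a table of 29872 genes, and all 5 passed the filter on low counts that left 14589 genes for testing. RNA with poly(A) was sequenced from bone marrow cells of male mice 8 to 10 weeks old, grown for 5 days with 10% L-cell conditioned medium, a source of macrophage growth factor. The labels assign 15 libraries to LysM-Cre+/+; GRIP1fl/fl mice (knockout) and 12 to wild-type mice. LysM-Cre is active in myeloid cells, so the deletion is directed to those cells and need not be complete. The titles call the wild-type mice BL6, whereas their genotype field reads C57BL/6, LysM-Cre+/+ ; GRIP1wt/wt, so whether the controls carried Cre is not settled by the labels. For 24 h the cells received IL4 at 10 ng/ml (3 knockout and 3 wild-type libraries), corticosterone at 500 nM (4 and 3), dexamethasone at 100 nM (4 and 3) or vehicle (4 and 3). Levels are in CPM, a gene's count scaled to a fixed library size. Replicates are libraries, and the labels do not say that each came from a separate mouse, so p-values here cover the spread among libraries, which may be technical.

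Chemokine receptors are G protein-coupled receptors that steer leukocytes along gradients of small secreted proteins. Cx3cr1 binds fractalkine, the product of Cx3cl1, and is a common marker of tissue macrophages and patrolling monocytes. Ccr1 binds inflammatory CC chemokines such as Ccl3 and Ccl5, and Ccr2 binds Ccl2 and draws classical monocytes out of the bone marrow. Cxcr4 binds Cxcl12 and retains cells in the marrow. Ccrl2 is an atypical receptor that presents chemerin without classical signalling.

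Cx3cr1 (ENSMUSG00000052336), Ccr1 (ENSMUSG00000025804), Ccr2 (ENSMUSG00000049103) and Ccrl2 (ENSMUSG00000043953) lie on chromosome 9 of GRCm38, and Cxcr4 (ENSMUSG00000045382) lies on chromosome 1. Cx3cr1 spans chr9:119901616-120069879, Ccrl2 chr9:111054486-111057519 and Cxcr4 chr1:128588199-128592293, all on the minus strand. The gene of Ccr1 is at chr9:123962124-123968692 and that of Ccr2 at chr9:124101950-124113557, with Ccr3 between them. The 250 bases before the start of the RefSeq transcript (GRCm38.p6), written 5′ to 3′ on the gene's strand, are shown for the 3 chromosome 9 members that were called with IL4 in both genotypes, and for Ccr3, whose dexamethasone response differed between genotypes. The windows are chr9:120068297-120068546 (minus strand) for Cx3cr1, chr9:123968693-123968942 (minus strand) for Ccr1, chr9:124101933-124102182 (plus strand) for Ccr2 and chr9:124021721-124021970 (plus strand) for Ccr3. The Cx3cr1 window and most of the Ccr2 window lie inside the gene spans given above, which are from GENCODE and not from RefSeq. Capitals mark letters that match GGGNNNNNCC, an NF-kappaB-type pattern, or ACANNNTGT, a glucocorticoid-response-type palindrome, on either strand.
Cx3cr1: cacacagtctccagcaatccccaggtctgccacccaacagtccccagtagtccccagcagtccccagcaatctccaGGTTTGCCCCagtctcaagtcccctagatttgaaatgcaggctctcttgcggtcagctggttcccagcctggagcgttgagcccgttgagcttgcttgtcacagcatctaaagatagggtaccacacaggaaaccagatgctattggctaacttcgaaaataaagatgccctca
Ccr1: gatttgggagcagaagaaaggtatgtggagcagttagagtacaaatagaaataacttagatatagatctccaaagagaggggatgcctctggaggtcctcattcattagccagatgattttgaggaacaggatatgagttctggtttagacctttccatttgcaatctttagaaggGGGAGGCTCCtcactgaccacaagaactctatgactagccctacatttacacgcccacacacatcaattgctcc
Ccr2: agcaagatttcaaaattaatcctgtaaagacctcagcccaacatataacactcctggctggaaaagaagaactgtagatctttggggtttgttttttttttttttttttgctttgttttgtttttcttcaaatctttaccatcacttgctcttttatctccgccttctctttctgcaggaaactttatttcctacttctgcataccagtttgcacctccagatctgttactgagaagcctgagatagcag
Ccr3: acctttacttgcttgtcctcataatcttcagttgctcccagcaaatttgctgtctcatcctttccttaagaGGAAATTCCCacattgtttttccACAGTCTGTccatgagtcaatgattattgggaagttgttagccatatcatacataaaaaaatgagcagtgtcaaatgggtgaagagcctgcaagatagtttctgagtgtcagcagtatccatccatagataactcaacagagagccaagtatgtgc
The glucocorticoid-type palindrome occurred once among these windows, in Ccr3, and is held by 5.84% of 32851 promoter windows of 250 bases. A STAT-type palindrome, TTCNNNNGAA, was found in none of the 7 windows of the 5 members and is held by 5.85% of all windows. The NF-kappaB-type pattern was found once each for Cx3cr1, Ccr1 and Ccr3, also in 1 of the Ccrl2 windows, and is held by 45.8% of all windows. The AGGAAG core of ETS factors, held by 29.5% of windows, was found in none of the member windows. No marked match overlapped another in the windows printed, and a match of letters is not a site.

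The libraries held 20162729 to 48023102 counts. Ncoa2, the gene of GRIP1, lay at 16.1 to 26.0 CPM in knockout libraries and 55.7 to 93.3 CPM in wild-type libraries, counted over the whole gene and not over the deleted part alone. Fkbp5, a glucocorticoid target, was at 470 to 792 CPM with either steroid in knockout and 499 to 947 CPM in wild type, against 58.6 to 74.1 and 62.9 to 65.6 CPM with vehicle. Summed CPM of 10 macrophage markers was 6247 to 7706 in all libraries, although Lyz2 reached only 50.8 CPM. Cd3e of T cells (at most 3 counts) and Ly6g of neutrophils (at most 2 counts) were at or near 0. Other neutrophil markers were present, among them S100a9 at up to 135 CPM and Mmp8 at up to 221 CPM. Of 8 stromal markers, 7 could be tested, and summed stromal CPM was 12.2 to 56.2 in knockout libraries and 186 to 1046 in wild-type libraries. Of 8 monocyte markers the sum was 112 to 361 CPM in knockout and 205 to 686 CPM in wild type, with no overlap between genotypes within any condition. The sum of 12 neutrophil markers was 94.9 to 231 CPM in knockout and 156 to 435 CPM in wild type. Mmp8 had the highest mean of them in every group but wild-type vehicle. Of 9 tested, 5 were called lower in knockout with vehicle, 5 with corticosterone, 5 with dexamethasone and 6 with IL4. With vehicle, IL4 and dexamethasone 1 was called higher. Between genotypes 12.4% to 18.8% of all genes were called. Genotype and these marker levels cannot be told apart in this design, and in such bulk samples fewer cells of a type and less RNA per cell cannot be told apart either. Arg1, an arginase gene that IL4 induces, was high without IL4 in 4 libraries: 117 and 78.4 CPM in replicates 2 and 3 of knockout vehicle, 67.9 CPM in replicate 2 of knockout dexamethasone and 67.0 CPM in replicate 1 of wild-type dexamethasone. The other libraries without IL4 held at most 12.2 CPM of Arg1.

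**Figure D1:**
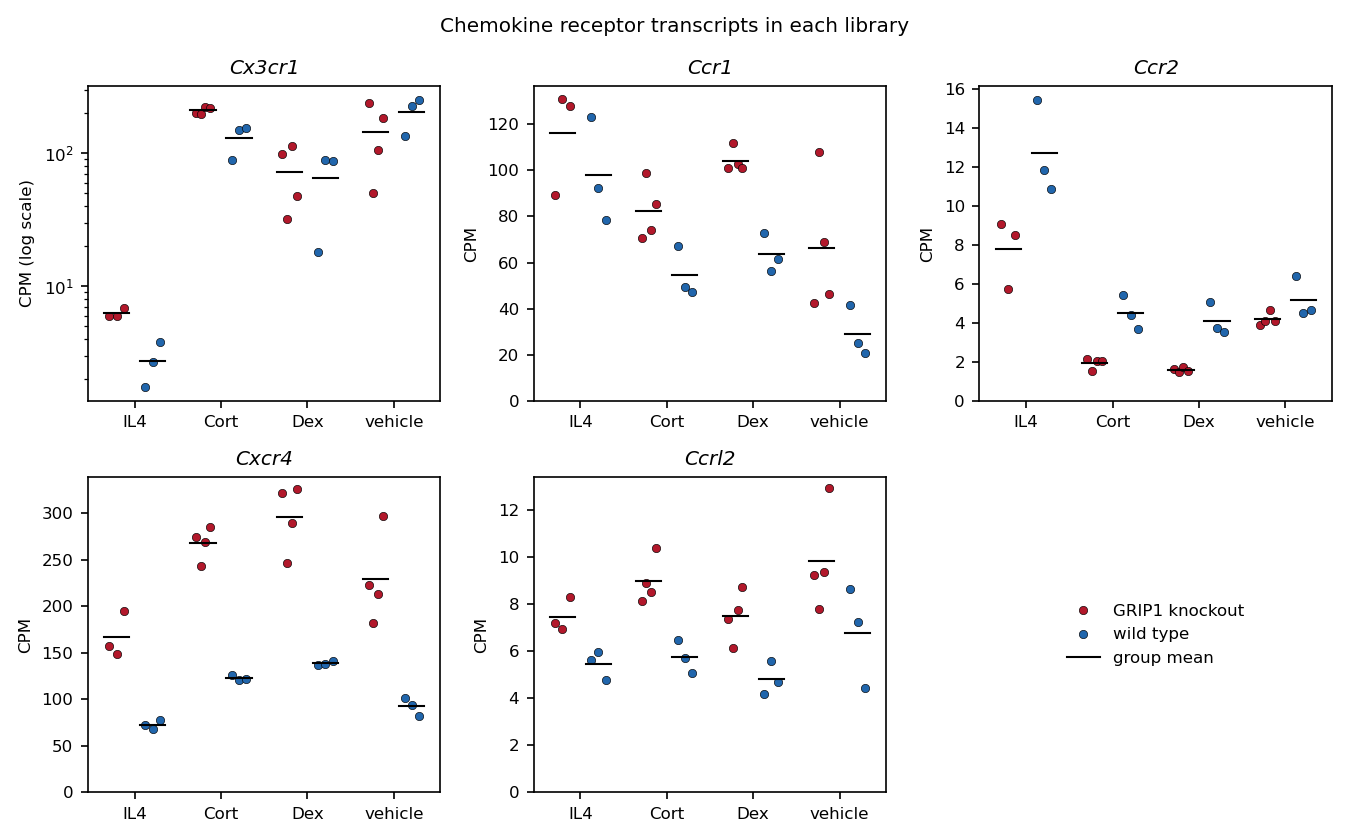
CPM of the 5 receptor genes in each of the 27 libraries (points) with group means (bars), by treatment and genotype; the Cx3cr1 axis is logarithmic. Cx3cr1 with IL4 lies between 1.76 and 6.88 CPM, below every library of the other treatments, and Cxcr4 in knockout libraries lies above Cxcr4 in wild-type libraries in each condition.

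With IL4, 4 of the 5 receptors were called in each genotype at an adjusted p under 0.05 (edgeR's quasi-likelihood F test, Benjamini-Hochberg adjustment over all 14589 genes), where 26.5% of all genes were called in knockout cells and 30.1% in wild-type cells. Corticosterone gave 1 call in knockout cells, against a background of 12.1%, and 0 in wild-type cells, against 5.94%. Beside that 0, 2 members had an unadjusted p under 0.05 and DESeq2 called 1. Dexamethasone gave 2 calls in knockout cells, against 18.4%, and 3 in wild-type cells, against 13.7%. Between knockout and wild type, 2 members were called with IL4 (background 12.4%), 3 with corticosterone (14.4%), 3 with dexamethasone (17.2%) and 3 with vehicle (18.8%). With 5 genes such shares are coarse, and the results below are those of the single genes.

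**Figure D2:**
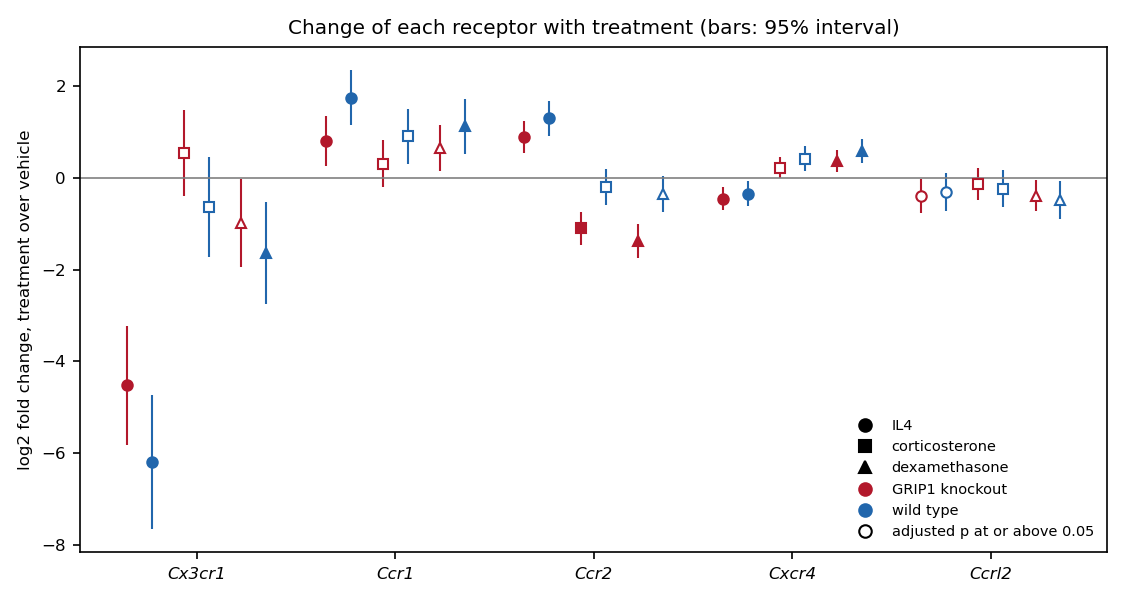
Fitted log2 fold change of each receptor, treatment over vehicle, in knockout and wild-type macrophages, with the 95% interval from edgeR; open symbols mark an adjusted p of 0.05 or more. Cx3cr1 with IL4 is at -4.52 in knockout and -6.19 in wild type, and Ccr2 with both glucocorticoids is filled in knockout cells only, although the difference between genotypes was not called.

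Cx3cr1, the fractalkine receptor, was nearly lost with IL4 in both genotypes. In knockout cells it lay at 6.01, 5.93 and 6.88 CPM with IL4, against 238, 49.9, 105 and 184 CPM with vehicle. In wild-type cells it lay at 1.76, 2.69 and 3.80 CPM with IL4, against 134, 226 and 250 CPM with vehicle. The groups did not overlap in either genotype, and every IL4 library was below every vehicle library by a wide margin. The fall was 23.0-fold in knockout cells (log2 fold change -4.52 ± 0.62 SE, adjusted p = 2.15e-05) and 73.1-fold in wild-type cells (-6.19 ± 0.71, adjusted p = 9.14e-07, edgeR). The knockout response minus the wild-type response was 1.67 (95% interval -0.16 to 3.50, adjusted p = 0.571, edgeR), so a difference between genotypes was not established. With IL4 alone, the 3 knockout libraries were all above the 3 wild-type libraries, at a log2 difference of 1.17 ± 0.74 (adjusted p = 0.315, edgeR).

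The span of Cx3cr1 holds an antisense gene, Gm33858, that shares 78 exon bases with it and had at most 16 counts in any library, and the strand setting of the counting is not known here.

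With glucocorticoids the differences of Cx3cr1 from vehicle were smaller. With dexamethasone it lay at 99.2, 31.8, 113 and 47.9 CPM in knockout cells and at 18.1, 89.3 and 88.2 CPM in wild-type cells. In wild-type cells every dexamethasone library was below every vehicle library, and Cx3cr1 fell 3.11-fold (-1.64 ± 0.54, adjusted p = 0.0463, edgeR). In knockout cells the dexamethasone and vehicle libraries overlapped, and the log2 fold change was -0.99 ± 0.46 (adjusted p = 0.153, edgeR). The wild-type call was narrow: leaving out 1 library ended it for 14 of the 27 libraries, among them each wild-type dexamethasone library and wild-type vehicle replicates 2 and 3, with values from -1.94 to -1.21 and adjusted p up to 0.148. It was also lost with only its own groups fitted (adjusted p = 0.173, edgeR) and with no filter on low counts (adjusted p = 0.114).

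The lowest Cx3cr1 library of the knockout vehicle, knockout dexamethasone and wild-type dexamethasone groups was in each case high in Arg1. Without the 4 libraries high in Arg1, the dexamethasone change of Cx3cr1 was -1.29 in knockout cells (adjusted p = 0.0076, edgeR) and -1.20 in wild-type cells (adjusted p = 0.016), and the IL4 change was -5.07 in knockout cells (adjusted p = 1.26e-08). Those 4 libraries were chosen from these data, and leaving them out removes the lowest Cx3cr1 library of each of those groups. What remains is replicates 1 and 4 of knockout vehicle, 1, 3 and 4 of knockout dexamethasone, and 2 and 3 of wild-type dexamethasone. Values from this fit, here and for other genes, are therefore a description and not a further test. What set those 4 libraries apart was not tested.

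**Figure D3:**
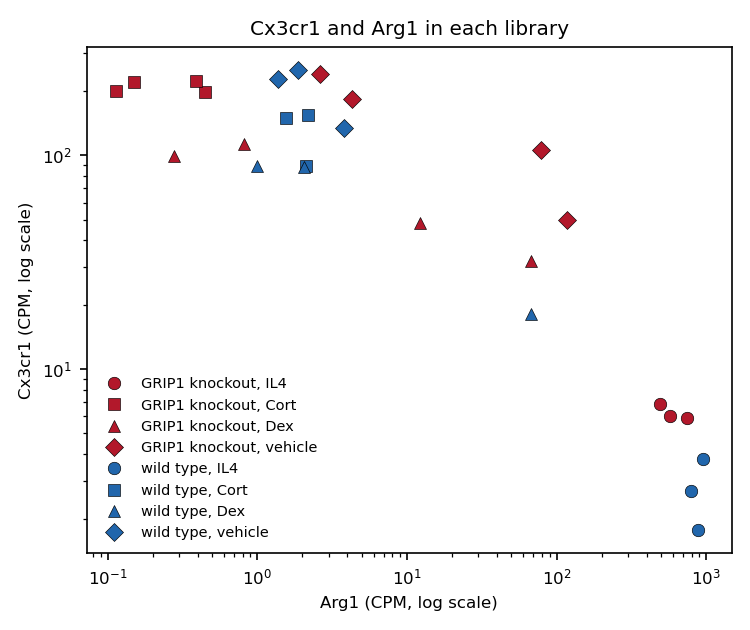
Cx3cr1 against Arg1 in each of the 27 libraries (points), both as CPM on log axes, by treatment and genotype. IL4 libraries sit at the lower right. On the Arg1 axis the vehicle and dexamethasone libraries with 67.0 to 117 CPM of Arg1 lie between them and the remaining libraries. Of those, the vehicle libraries, at 49.9 and 105 CPM of Cx3cr1, lie within the range of the remaining libraries without IL4. The dexamethasone libraries among them, at 18.1 and 31.8 CPM, lie below all remaining libraries without IL4, the lowest of which is at 47.9 CPM.

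With corticosterone Cx3cr1 lay at 199, 198, 223 and 220 CPM in knockout cells and at 89.2, 150 and 154 CPM in wild-type cells. Every knockout library was above every wild-type library, yet the difference of 0.68 ± 0.49 was not called (adjusted p = 0.434, edgeR). Corticosterone against vehicle gave 0.54 ± 0.45 in knockout cells (adjusted p = 0.546) and -0.64 ± 0.52 in wild-type cells (adjusted p = 0.648). Without the libraries high in Arg1 the knockout value was -0.0081, of the opposite sign. For dexamethasone set against corticosterone, 0 of 5 members were called in either genotype, where 0.322% of genes were called in knockout cells and 0.185% in wild-type cells, and DESeq2 likewise called 0. The smallest adjusted p was that of Cx3cr1 in knockout cells, the single member with an unadjusted p under 0.05, at -1.53 ± 0.46 (adjusted p = 0.225, edgeR). With the replicate number as a block the value was -1.68 (adjusted p = 0.0303), and without the libraries high in Arg1 it was -1.28 (adjusted p = 0.0375). The 4 dexamethasone libraries were all below the 4 corticosterone libraries.

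Ccr1, a receptor for inflammatory CC chemokines, rose with IL4 in both genotypes. It lay at 89.4, 131 and 128 CPM with IL4 in knockout cells, against 42.5, 108, 69.1 and 46.5 CPM with vehicle. In wild-type cells it lay at 123, 92.1 and 78.4 CPM with IL4, against 41.8, 24.9 and 20.9 CPM with vehicle. The wild-type groups were apart, whereas knockout vehicle replicate 2, one of the libraries high in Arg1, lay above the lowest knockout IL4 library. The rise was 1.75-fold in knockout cells (log2 0.81 ± 0.26, adjusted p = 0.0254) and 3.35-fold in wild-type cells (1.75 ± 0.29, adjusted p = 7.58e-05, edgeR). Leaving out knockout vehicle replicate 1 or 4, or knockout IL4 replicate 2 or 4, took the knockout call away (0.64 to 0.73, adjusted p 0.082 to 0.0958). Fitting only its own groups (adjusted p = 0.112) or dropping the filter (adjusted p = 0.07) did so too, whereas without the libraries high in Arg1 the value was 1.38 (adjusted p = 0.000452). The difference between the genotypes' responses, -0.94 (95% interval -1.75 to -0.13), was not called (adjusted p = 0.47, edgeR).

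With dexamethasone Ccr1 reached 101, 112, 103 and 101 CPM in knockout cells and 72.9, 56.3 and 61.6 CPM in wild-type cells. Every wild-type dexamethasone library was above every wild-type vehicle library, and Ccr1 rose 2.18-fold there (1.12 ± 0.29, adjusted p = 0.0105, edgeR). That call was lost without wild-type vehicle replicate 2 (1.02, adjusted p = 0.0543) or 3 (0.93, adjusted p = 0.0679). In knockout cells the change was 0.65 ± 0.24 (adjusted p = 0.0697), and the groups overlapped through vehicle replicate 2. Without the libraries high in Arg1 it was 1.19 (adjusted p = 0.00322, edgeR).

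With corticosterone Ccr1 lay at 70.8, 99.0, 74.1 and 85.5 CPM in knockout cells and at 67.0, 49.3 and 47.2 CPM in wild-type cells. The wild-type libraries were all above their vehicle libraries, but the change of 0.90 ± 0.29 missed the threshold (adjusted p = 0.0719, edgeR). With the replicate number as a block, which pairs the wild-type libraries, it was 0.93 (adjusted p = 0.00357). In knockout cells the change was 0.31 ± 0.24 (adjusted p = 0.511), and 0.89 (adjusted p = 0.031) without the libraries high in Arg1.

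Between genotypes, Ccr1 was 2.28-fold higher in knockout than in wild-type vehicle cells (1.19 ± 0.27, adjusted p = 0.00357, edgeR), with no overlap. Without the libraries high in Arg1 the value was 0.61 (adjusted p = 0.121), and with only these groups fitted it was 1.18 (adjusted p = 0.0917). The differences with IL4 (0.25, adjusted p = 0.601), corticosterone (0.60, adjusted p = 0.157) and dexamethasone (0.71, adjusted p = 0.072) were of the same sign and not called. In the alternative settings the dexamethasone difference was called in 3 of 35 (adjusted p down to 0.00214, edgeR) and the corticosterone difference in 1 (adjusted p = 0.0417).

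Ccr2, the receptor for Ccl2, rose with IL4 in both genotypes and fell with both glucocorticoids in knockout cells. With IL4 it lay at 9.09, 5.76 and 8.50 CPM in knockout cells, against 3.87, 4.09, 4.67 and 4.11 CPM with vehicle. In wild-type cells it lay at 15.4, 11.8 and 10.9 CPM with IL4, against 6.41, 4.50 and 4.64 CPM with vehicle. The IL4 libraries were above the vehicle libraries of their genotype without overlap. The rise was 1.86-fold in knockout cells (0.89 ± 0.17, adjusted p = 0.000459) and 2.45-fold in wild-type cells (1.29 ± 0.18, adjusted p = 7.14e-06, edgeR). Levels were low throughout, at 35 to 386 counts per library.

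With corticosterone Ccr2 lay at 2.16, 1.55, 2.02 and 2.06 CPM in knockout cells and at 5.44, 4.41 and 3.67 CPM in wild-type cells. With dexamethasone it lay at 1.66, 1.47, 1.75 and 1.55 CPM in knockout cells and at 5.07, 3.71 and 3.51 CPM in wild-type cells. All 8 knockout libraries with a glucocorticoid were below every knockout vehicle library, while the wild-type glucocorticoid libraries overlapped wild-type vehicle. In knockout cells Ccr2 fell 2.15-fold with corticosterone (-1.10 ± 0.17, adjusted p = 0.000105) and 2.61-fold with dexamethasone (-1.38 ± 0.18, adjusted p = 3.71e-06, edgeR). In wild-type cells the changes were -0.20 ± 0.19 (adjusted p = 0.703) and -0.35 ± 0.19 (adjusted p = 0.276). With the replicate block the wild-type dexamethasone value was -0.34 (adjusted p = 0.0342).

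The test of the difference between genotypes did not reach the threshold for Ccr2. The knockout response minus the wild-type response was -0.90 with corticosterone (95% interval -1.43 to -0.37, adjusted p = 0.227) and -1.04 with dexamethasone (95% interval -1.57 to -0.50, adjusted p = 0.133, edgeR). With the replicate block the corticosterone difference was -0.91 (adjusted p = 0.00905). Over all genes few such differences were called: 0.0274% for IL4, 0.0206% for corticosterone and 0.185% for dexamethasone. Without the block, no member was called in any of the 3, by edgeR or by DESeq2. At an unadjusted p under 0.05, 1 member passed in each, Ccr1 for IL4 and Ccr2 for both glucocorticoids.

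Ccr2 was lower in knockout than in wild-type cells in each treated condition. The difference was -0.70 ± 0.18 with IL4 (adjusted p = 0.012), -1.20 ± 0.18 with corticosterone (adjusted p = 9.15e-05) and -1.34 ± 0.19 with dexamethasone (adjusted p = 3.22e-05, edgeR), and in these conditions the genotypes did not overlap. Under vehicle it was -0.30 ± 0.17 (adjusted p = 0.268), with overlap. The IL4 call rested on wild-type IL4 replicate 1 (without it -0.57, adjusted p = 0.0942) and was lost with only these groups fitted (-0.73, adjusted p = 0.116). The monocyte markers were also lower in knockout cells: 5 of 7 tested were called lower with corticosterone and 5 with dexamethasone, 6 with vehicle and 1 with IL4. Of all genes, 14.4%, 17.2%, 18.8% and 12.4% were called in these conditions, in that order. The part of monocyte RNA in the Ccr2 difference was not tested.

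**Figure D4:**
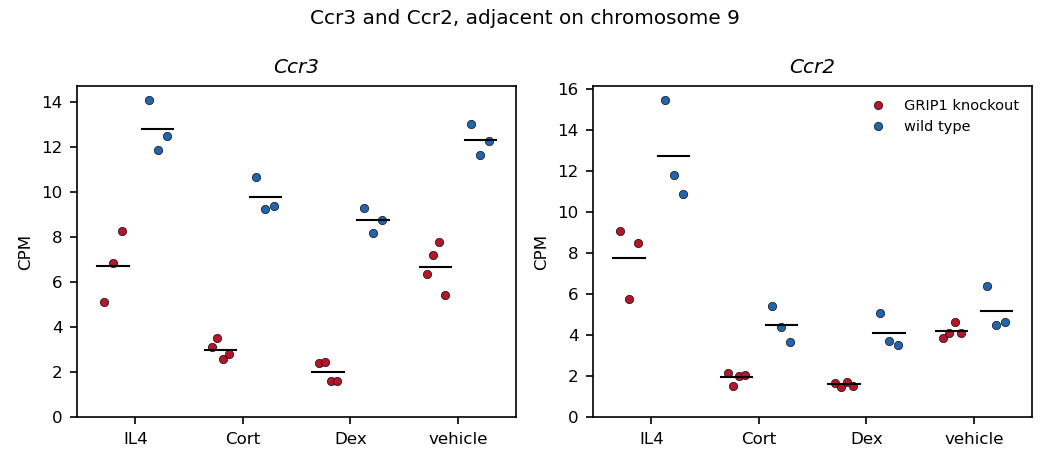
CPM of Ccr3 and Ccr2, which lie side by side on chromosome 9, in each library (points) with group means (bars), by treatment and genotype. With corticosterone and dexamethasone both lie lower in knockout than in wild-type libraries without overlap, and with IL4 Ccr2 is above its vehicle level while Ccr3 is near its own.

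The neighbouring receptor Ccr3 belongs to a list of 18 other chemokine receptors, of which 5 had enough counts to test. Ccr3, an eotaxin receptor best known from eosinophils, lay at 1.60 to 2.44 CPM with dexamethasone in knockout cells, against 5.42 to 7.78 CPM with vehicle. In wild-type cells it lay at 8.20 to 9.30 CPM with dexamethasone and 11.6 to 13.01 CPM with vehicle. Dexamethasone libraries were lower than vehicle libraries without overlap in both genotypes. The fall was -1.75 ± 0.16 in knockout cells (adjusted p = 1.36e-08) and -0.49 ± 0.16 in wild-type cells (adjusted p = 0.0412), and the responses differed by -1.26 ± 0.22 (adjusted p = 0.0116, edgeR). The call of the difference was lost when only the 4 groups compared were fitted, and without the libraries high in Arg1 (-1.13, adjusted p = 0.148).

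Ccr2 shares sequence with other genes: of the 6758 words of 50 bases in its transcripts, 1.91% also occur in another gene. How the counting treated reads from such words was not tested, so its count is uncertain to that extent.

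Cxcr4, the Cxcl12 receptor, was higher in knockout cells in all conditions. It lay at 158, 149 and 194 CPM in knockout cells with IL4, against 71.9, 67.8 and 78.0 CPM in wild-type cells. With corticosterone it lay at 274, 243, 269 and 284 CPM in knockout cells, against 127, 121 and 121 CPM in wild-type cells. With dexamethasone it lay at 322, 246, 289 and 325 CPM in knockout cells, against 136, 138 and 141 CPM in wild-type cells. The lowest knockout library was above the highest wild-type library in each of these conditions. Under vehicle it lay at 223, 182, 213 and 297 CPM in knockout cells, against 101, 94.3 and 82.1 CPM in wild-type cells, again without overlap. The difference was 2.30-fold with IL4 (1.20 ± 0.13, adjusted p = 1.93e-06), 2.17-fold with corticosterone (1.12 ± 0.13, adjusted p = 1.47e-06), 2.13-fold with dexamethasone (1.09 ± 0.13, adjusted p = 1.71e-06) and 2.47-fold with vehicle (1.31 ± 0.13, adjusted p = 1.32e-07, edgeR). These 4 calls were kept in all 35 alternative settings.

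**Figure D5:**
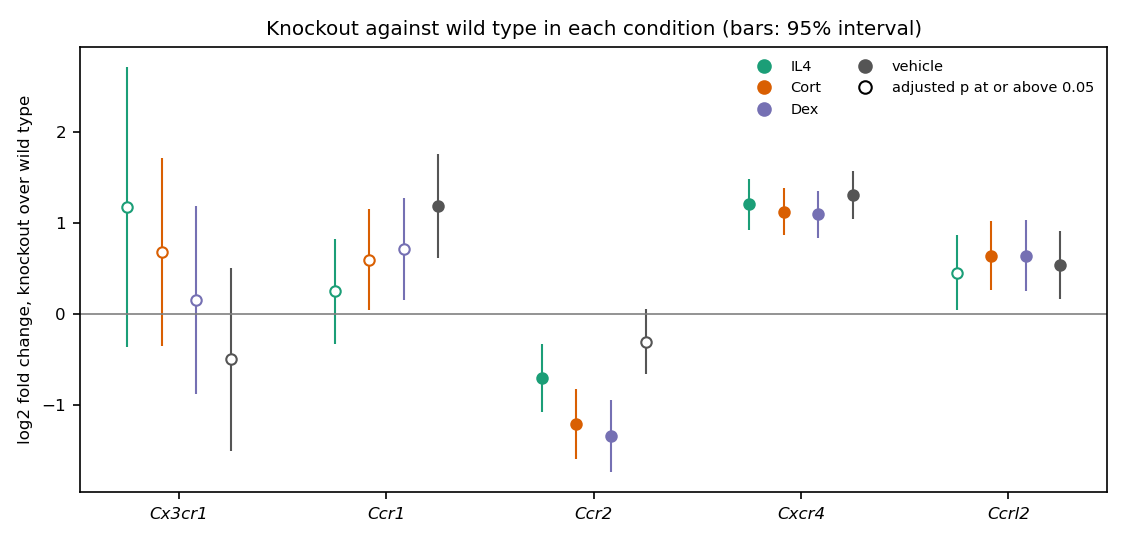
Fitted log2 fold change of each receptor, knockout over wild type, in each condition with the 95% interval from edgeR; open symbols mark an adjusted p of 0.05 or more. Cxcr4 lies between 1.09 and 1.31 in the 4 conditions, Ccr2 between -1.34 and -0.30, and Cx3cr1 has wide intervals that include 0.

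Cxcr4 and Ncoa2 are both on chromosome 1, with 115 Mb between them. Between genotypes, 18.8% of all genes were called under vehicle and 12.4% to 17.2% under the treatments. The stromal markers were lower in knockout cells, with 7 of 7 tested called under vehicle and 6 under each treatment. Cxcl12, the ligand of Cxcr4, fell with them: under vehicle it lay at 2.36, 1.64, 1.38 and 0.69 CPM in knockout cells, against 35.5, 12.7 and 7.96 CPM in wild-type cells. The genotypes did not overlap, and the log2 differences were -3.65, -2.97, -2.82 and -3.65 with IL4, corticosterone, dexamethasone and vehicle (adjusted p 0.00292, 0.00275, 0.00334 and 0.000413, edgeR). In the 3 wild-type vehicle libraries the summed stromal markers spanned 251 to 991 CPM and Cxcr4 82.1 to 101 CPM. Genotype and stromal marker level cannot be told apart in this design, and the part of stromal cells in the Cxcr4 difference was not tested.

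Treatment moved Cxcr4 modestly and in opposite directions for IL4 and glucocorticoids. With IL4 it fell 1.37-fold in knockout cells (-0.45 ± 0.12, adjusted p = 0.00807) and 1.27-fold in wild-type cells (-0.35 ± 0.13, adjusted p = 0.0487, edgeR). The wild-type call was lost for 21 of the 27 libraries left out in turn (adjusted p up to 0.173), although the wild-type groups did not overlap. The knockout call was lost when only its own groups were fitted (-0.46, adjusted p = 0.0934).

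With dexamethasone Cxcr4 rose 1.29-fold in knockout cells (0.37 ± 0.11, adjusted p = 0.0223) and 1.50-fold in wild-type cells (0.59 ± 0.13, adjusted p = 0.00316, edgeR). The wild-type rise was kept in all 35 alternative settings and its groups were apart, whereas the knockout groups overlapped. The knockout call was lost without the libraries high in Arg1 (0.26, adjusted p = 0.164), when only its own groups were fitted (0.37, adjusted p = 0.123), and without knockout vehicle replicate 1, 2 or 3 or knockout dexamethasone replicate 1 or 4 (0.27 to 0.36, adjusted p 0.0531 to 0.1). With corticosterone the changes were 0.23 ± 0.11 in knockout cells (adjusted p = 0.232) and 0.41 ± 0.13 in wild-type cells (adjusted p = 0.0662). With the replicate block these were 0.24 (adjusted p = 0.0143) and 0.41 (adjusted p = 0.00116). The wild-type corticosterone libraries were all above the wild-type vehicle libraries.

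Ccrl2, the chemerin-presenting receptor, was called against vehicle under no treatment and was modestly higher in knockout cells in 3 of the 4 conditions. It lay at 7.21, 6.94 and 8.30 CPM in knockout cells with IL4, against 5.64, 5.95 and 4.80 CPM in wild-type cells. With corticosterone it lay at 8.16, 8.89, 8.51 and 10.4 CPM in knockout cells, against 6.50, 5.72 and 5.08 CPM in wild-type cells. With dexamethasone it lay at 7.38, 6.15, 7.77 and 8.73 CPM in knockout cells, against 4.18, 5.59 and 4.69 CPM in wild-type cells. The genotypes did not overlap in these 3 conditions. Under vehicle it lay at 9.25, 7.82, 9.36 and 12.96 CPM in knockout cells, against 8.64, 7.26 and 4.44 CPM in wild-type cells, with overlap. The difference was 0.45 ± 0.20 with IL4 (adjusted p = 0.135), 0.64 ± 0.18 with corticosterone (adjusted p = 0.0193), 0.64 ± 0.19 with dexamethasone (adjusted p = 0.0206) and 0.54 ± 0.18 with vehicle (adjusted p = 0.0371, edgeR).

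Each of the 3 Ccrl2 calls was lost without some libraries. For vehicle these were knockout vehicle replicates 3 and 4 and wild-type vehicle replicates 2 and 3 (0.31 to 0.60, adjusted p up to 0.261), and the call was also lost with only these groups fitted (adjusted p = 0.205) and with library totals not scaled further (adjusted p = 0.0559). For corticosterone they were knockout replicate 4 and wild-type replicates 2 and 3 (adjusted p up to 0.0852), and for dexamethasone knockout replicate 4 and wild-type replicates 1 and 3 (adjusted p up to 0.106). Without the libraries high in Arg1 the dexamethasone difference was 0.63 (adjusted p = 0.0648). No treatment was called against vehicle for Ccrl2 in either genotype, with values from -0.49 to -0.13. With the replicate block, the values for IL4 in knockout cells (-0.39, adjusted p = 0.0194) and dexamethasone in wild-type cells (-0.45, adjusted p = 0.0267) passed the threshold.

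Set against the glucocorticoids directly, IL4 separated 3 of the receptors in each genotype, where 37.9% (corticosterone) and 38% (dexamethasone) of all genes were called in knockout cells and 31.7% for each in wild-type cells. Cx3cr1 was lower with IL4 than with corticosterone (-5.06 in knockout, -5.56 in wild type) and than with dexamethasone (-3.54 and -4.56). Ccr2 was higher with IL4 by 1.995 and 2.27 in knockout cells and by 1.50 and 1.64 in wild-type cells against corticosterone and dexamethasone. Cxcr4 was lower with IL4, at -0.68 and -0.82 in knockout cells and -0.76 and -0.93 in wild-type cells. All 12 values had an adjusted p of 0.00011 or less (edgeR) and kept their call in the 35 alternative settings. Ccr1 was called only for IL4 against corticosterone in wild-type cells (0.84 ± 0.28, adjusted p = 0.0258). That call was lost without wild-type IL4 replicate 1 or wild-type corticosterone replicate 2 or 3 (0.67 to 0.78, adjusted p up to 0.12) and without a filter on low counts (0.84, adjusted p = 0.0661). With the replicate block, IL4 against dexamethasone in wild-type cells (0.60, adjusted p = 0.0164) and IL4 against corticosterone in knockout cells (0.49, adjusted p = 0.0312) also passed for Ccr1.

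Per kilobase of exon, Cxcr4 had the highest mean of the 5 genes in every group. Its means were 92.3 to 163 CPM per kb in knockout groups and 40.1 to 76.7 in wild-type groups. In wild-type vehicle cells Cxcr4 averaged 51.1 ± 5.30 and Cx3cr1 45.2 ± 13.6 (SD, n = 3), which their spread does not separate. In wild-type cells with IL4, Cxcr4 averaged 40.1 ± 2.84 and Ccr1 34.5 ± 8.06 (SD, n = 3), also not separated. Ccr2 had the lowest level in 7 of the 8 group means, and in wild-type cells with IL4 Cx3cr1 was lower still (0.61 ± 0.23 CPM per kb for Cx3cr1 and 1.88 ± 0.36 for Ccr2, SD, n = 3). In knockout cells with IL4 those genes lay at 1.39 ± 0.12 and 1.15 ± 0.26 CPM per kb. The order of Cx3cr1 and Ccr1 was not the same in all groups. In knockout vehicle cells Cx3cr1 averaged 32.0 ± 18.5 and Ccr1 23.5 ± 10.6 CPM per kb (SD, n = 4), which their spread does not separate. The SDs given here do not compare the genes within a library. In knockout vehicle replicates 2 and 3, high in Arg1, Cx3cr1 was at 49.9 and 105 CPM, against 238 and 184 CPM in replicates 1 and 4. Ccr1 was at 108 and 69.1 CPM there, against 42.5 and 46.5 CPM. In wild-type vehicle cells Cx3cr1 averaged 45.2 ± 13.6 and Ccr1 10.3 ± 3.91 CPM per kb (SD, n = 3). With dexamethasone Ccr1 averaged 36.7 ± 1.88 and Cx3cr1 16.2 ± 8.68 in knockout (SD, n = 4). In wild type with dexamethasone Ccr1 averaged 22.4 ± 2.99 and Cx3cr1 14.5 ± 9.05 (SD, n = 3), which their spread does not separate, and the low Cx3cr1 level there is that of replicate 1, a library high in Arg1. Ccrl2 stayed at 1.85 to 3.79 CPM per kb.

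Among the 3 genes whose 8 group means were most like each receptor's, out of 10085 candidates with at least 5 CPM in some group, were Snrpb2, Gmip and Arhgef2 for Cx3cr1 (Pearson's r = 0.999, 0.993 and 0.993), Mettl17 and Lrp12 for Ccr1 (0.989 and 0.984), Naa25 and Iqgap1 for Ccr2 (0.992 and 0.990), Hacd4, Zfp110 and Arhgap15 for Cxcr4 (0.992, 0.989 and 0.987), and Aldh9a1, Als2cl and Fam118a for Ccrl2 (0.985, 0.978 and 0.976). Als2cl lies 154 kb from Ccrl2. By Spearman's rho the first 3 genes for Cx3cr1, Ccr1, Ccr2 and Cxcr4 were tied at 1, so which tied genes come first may be arbitrary. Arhgap15, among the first 3 for Cxcr4 by Pearson's r, also had a rho of 1 with it. These correlations over 8 points share libraries and describe the pattern only.

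Among the other 5 testable receptors, IL4 lowered Cxcr3, a receptor for interferon-induced chemokines, in both genotypes. Cxcr3 averaged 4.10 ± 0.71 CPM with IL4 (SD, n = 3), against 10.3 ± 2.18 CPM with vehicle in knockout cells (SD, n = 4), and 3.27 ± 0.43 CPM against 10.3 ± 1.14 CPM in wild-type cells (SD, n = 3 each). The log2 fold changes were -1.32 in knockout and -1.65 in wild type (adjusted p = 8.45e-06 and 4.54e-07, edgeR). Cxcr2, a neutrophil chemokine receptor at no more than 2.92 CPM, rose with IL4 in both genotypes (3.14 and 1.41), and Ccr7, which guides cells to lymph nodes, fell with dexamethasone in both (-2.83 in knockout and -2.57 in wild type), at no more than 7.76 CPM in any library. With IL4, 1 of the 5 rose and 1 fell in each genotype, where 26.5% of all genes were called in knockout and 30.1% in wild type. With dexamethasone 2 fell in each genotype, where 18.4% and 13.7% of all genes were called. The median of the 5 with dexamethasone, which is the value of Ccr3 itself, was -1.75 in knockout and -0.49 in wild-type cells. That of all genes was -0.002 and 0.01. Among the 5, Cxcr6 had at most 14 counts and Cxcr2 at most 73 in a library.

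Of 10 ligand genes of these receptors, 9 were tested. With IL4, 2 rose and 1 fell in each genotype, where 26.5% of all genes were called in knockout and 30.1% in wild type. With IL4, Ccl6 and Ccl9, CC chemokines that bind Ccr1, rose in both genotypes: Ccl6 by 1.02 in knockout and 1.36 in wild type (adjusted p = 0.0049 and 6e-04), and Ccl9 by 0.76 and 0.65 (adjusted p = 8.95e-05 and 0.000657, edgeR). In each genotype 1 ligand fell with IL4, Cx3cl1 in knockout cells (-0.80) and Ccl3 in wild-type cells (-0.75). With dexamethasone 2 ligands rose and 2 fell in knockout cells (18.4% of all genes called), and 0 rose and 2 fell in wild-type cells (13.7%). Those that fell were Ccl5 and Cx3cl1 in both genotypes (Ccl5 -0.97 in knockout and -1.51 in wild type, Cx3cl1 -0.76 and -1.07). With dexamethasone neither exceeded 2.19 CPM in any library.

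Downstream, all 16 listed genes of receptor signalling were tested. With IL4, 3 rose and 3 fell in knockout cells (26.5% of all genes called), and 3 rose and 6 fell in wild-type cells (30.1%), with a median of -0.05 and -0.09 beside 0.01 and -0.01 for all genes. Vav1, an exchange factor for Rac, fell by 0.55 in knockout and 0.76 in wild type on the log2 scale, and Gnai3, an inhibitory G protein subunit, rose by 0.25 and 0.39. Between genotypes 1 of the 16 was called in any condition, Rac2 with corticosterone (0.18), where 14.4% of all genes were called. In the other conditions 12.4% to 18.8% of all genes were called between genotypes.

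Of 15 listed genes that shut receptors off, all tested, IL4 lowered 6 in each genotype and raised 1 in knockout cells, where 26.5% of all genes were called in knockout and 30.1% in wild type. Arrb2, the beta-arrestin that uncouples activated receptors, fell by 0.65 in knockout and 1.12 in wild type (adjusted p = 2.76e-05 and 2.35e-08, edgeR). Rgs2, which speeds GTP hydrolysis on G proteins, fell under all 3 treatments in both genotypes: -0.36 with IL4, -0.63 with corticosterone and -0.86 with dexamethasone in knockout cells, and -0.39, -0.69 and -1.07 in wild-type cells. Grk3, a receptor kinase, fell with both glucocorticoids in both genotypes (-0.86 to -0.50). Between genotypes Rgs16 was far lower in knockout cells in every condition (-4.32 to -3.19), beside the stromal marker difference, and Rgs18 and Rgs10 were higher in knockout cells by 0.27 to 0.70.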

How the data were processed

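Poly(A) RNA was sequenced as 50 bp paired reads with a directional kit, per the labels' protocols. The submitters' processing notes name fastp 0.23.2, STAR 2.7.0, featureCounts, edgeR 3.38.4 and the mm10 build, without a strand setting for the counting. The deposited values are raw read counts per gene, made by the authors with these tools. The receptors and gene lists were chosen with earlier results of these data known. The genes named are the 5 receptors, the listed receptors, ligands, signalling and shut-off genes, and the 3 genes most like each receptor. CPM used TMM-scaled library sizes. edgeR 4.0.16 (R 4.3.3, limma 3.58.1) fitted 1 mean for each of the 8 groups to the 27 libraries, with filterByExpr at a minimum count of 10, a quasi-likelihood F test and Benjamini-Hochberg adjustment over 14589 genes. All adjusted p-values are from such fits across all genes, called under 0.05. Alternatives were another scaling, no scaling, no filter, a newer edgeR fit, only the groups compared, a replicate block, DESeq2 1.42.0, and each library left out. Leaving out the 4 libraries high in Arg1, which were chosen from these data, was an alternative too. Replicate numbers paired libraries within a genotype by their deviations from group means (every correlation over 0.1: wild-type pairs 0.193 to 0.713, other knockout pairs 0.104 to 0.310), except knockout vehicle with dexamethasone (0.00519 to 0.363), and did not pair genotypes. No pair of libraries within a group agreed within sampling noise (chi-square per degree of freedom 5.71 to 45.2). Some listed or similar genes are not reported here and are left out of the list counts. The scripts were tested on simulated counts. Positions are from GENCODE vM21 and promoters from RefSeq.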

Additional observations from a re-analysis of the deposited data

Results flagged for a closer look

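The dexamethasone response of Ccr3 differed between genotypes by the test of the difference itself. The knockout response minus the wild-type response was -1.26 ± 0.22 on the log2 scale (adjusted p = 0.0116, edgeR). The call was lost when only the 4 groups compared were fitted and without the libraries high in Arg1 (-1.13, adjusted p = 0.148). Ccr2 beside it showed -1.04 ± 0.26, which was not called (adjusted p = 0.133).

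A single library stood apart from its group for Ccr1, at 112 CPM in replicate 2 of knockout dexamethasone, where the others lay at 101 to 103 CPM. That library is one of the 4 high in Arg1. Among 21 groups of 4 libraries looked at, chance marks about 1 in 20 in this way.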

How the results depend on the processing

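Over 19 comparisons, 38 member values were called and 26 of these calls were kept in all 35 alternative settings, while 18 of 57 uncalled values were called in some setting. The replicate block raised the members called to 2 for corticosterone and 5 for dexamethasone in wild type, 2 and 4 in knockout, and to 1 each for the genotype difference in the corticosterone and dexamethasone responses and for dexamethasone against corticosterone in knockout. It raised calls over all genes too, to 1790 with the block against 866 without for corticosterone and 3224 against 1996 for dexamethasone in wild type, and to 2972 against 1762 and 4056 against 2684 in knockout. For the genotype differences in the corticosterone and dexamethasone responses it gave 110 against 3 and 214 against 27, and 274 against 47 for the steroids set against each other in knockout. For the pair that the numbers did not join, knockout vehicle and dexamethasone, the block gave Ccr1 0.71 (adjusted p = 0.00321) and Ccrl2 -0.38 (0.0142), and Ccr2 -1.04 (0.0018) for the genotype difference (edgeR). The block changed no other member call than those given here and beside the results. With only the groups compared, the members called were 1 for corticosterone in wild type, 2 for IL4 and 1 for dexamethasone in knockout, and 1 each for knockout against wild type under vehicle and IL4. Over all genes that fit called 1745 against 3873 for IL4 in knockout, and between genotypes 1641 against 2738 under vehicle and 616 against 1807 with IL4. Without the libraries high in Arg1 they were 2 for corticosterone in each genotype and 1 for dexamethasone against corticosterone in knockout, and DESeq2 called 1 for corticosterone in wild type. Leaving out 1 library gave 0 to 2 for corticosterone and 1 to 3 for dexamethasone in wild type, 1 to 2 and 1 to 3 in knockout, and 1 to 2 between genotypes with IL4. The cause was not tested.

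Uncalled values changed sign without the libraries high in Arg1: Cx3cr1 with corticosterone in knockout (-0.0081), between genotypes under vehicle (0.052) and dexamethasone (-0.038), and in the genotype difference of the dexamethasone response (-0.090); Ccr1 (0.17) and Ccrl2 (-0.083) in that same difference; and Ccrl2 in that of corticosterone (-0.075). Leaving out 1 library spanned 0 for other uncalled values. Ccrl2 ran from -0.24 to 0.027 with corticosterone and -0.087 to 0.075 for IL4 against dexamethasone in knockout, -0.16 to 0.037 for IL4 against corticosterone in wild type, and from -0.30 to 0.14, -0.11 to 0.33 and -0.11 to 0.32 for the genotype difference with IL4, corticosterone and dexamethasone. Cx3cr1 ran from -0.28 to 0.44 between genotypes under dexamethasone, Cxcr4 from -0.23 to 0.044 for the genotype difference with IL4, and Ccr2 from -0.31 to 0.011 for dexamethasone against corticosterone in wild type. Ccr2 had as few as 35 counts in a library, which limits its precision.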
